A study of Saccharomyces cerevisiae
Saccharomyces paradoxus with 24 samples.

Results

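Of the windows at which Rap1 was called in budding yeast, 421 had a middling Rap1 signal before depletion, beside 402 weaker and 295 stronger ones, and the values below follow those 421 as Rap1 was taken out of the nucleus. A window is the 301 bp centred on a peak summit of Rap1 chromatin immunoprecipitation followed by sequencing (ChIP-seq), and its signal is the number of reads in the window per 1000000 reads of the spiked-in yeast Saccharomyces paradoxus in the same library. Members were chosen by the 0 min ChIP signal: they are all windows at which it, averaged over the 2 replicates, was at least 100 and under 300. The weaker windows lay under 100 and the stronger ones at 300 or more. Every contrast against 0 min below is a description, and tests start from 5 min.

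The study used the anchor-away method, in which rapamycin ties an FRB-tagged protein to an FKBP12-tagged ribosomal protein that leaves the nucleus. Both isolates, JRy15237 (replicate 1) and JRy15238 (replicate 2), were Saccharomyces cerevisiae of the W303 background with Rap1(134)-FRB_2xV5, RPL13A-2xFKBP12::TRP1, fpr1::NAT, TOR1(S1972I), hmrdelta::HygMX, bar1delta::k.l.URA3, a unique HML allele carrying SNPs, lys2, ura3 and marker alleles of CAN1, HIS3, LEU2 and TRP1, so every time point carried the same alleles. Cells took 7.5 µM rapamycin for 5, 10, 15, 20, 30, 45 or 60 min, while the 0 min cells took DMSO for 60 min. Each of the 16 ChIP libraries and the 2 input libraries at 0 min received 5% of cells by optical density from JRy15212, an S. paradoxus strain with Rap1-2xV5 that lacked the anchor and saw no rapamycin. Rap1 that stays bound, or that rebinds before leaving the nucleus, both keep the signal up, and these data cannot tell them apart.

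Rap1 is a sequence-specific general regulatory factor of budding yeast. It activates most ribosomal protein (RP) genes and many glycolytic genes, and it binds the telomere repeats and the silencers, where it recruits Sir proteins. Genes of RNA polymerase III such as tRNA genes carry their promoter elements inside the transcribed region, where TFIIIC binds. The windows of middle strength were grouped by position alone, with no class for silencers or telomere repeats. A total of 130 lay over a tRNA gene, 102 had an open reading frame (ORF) starting within 300 bp downstream of the summit, 41 had the start of an RP gene within 500 bp, 39 lay within 15 kb of a chromosome end, and 140 were in none of these classes, which overlap. The summit was inside an ORF at 132 members. ORFs of Ty elements, whose peaks the study left out, were not set apart.

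The makeup of the members differed from that of the stronger windows. Of the 239 windows over tRNA genes in the whole table, 130 (54.4%) were members, 107 were weaker and 2 were stronger. Of the 193 windows near an RP gene start, 41 (21.2%) were members and 100 (51.8%) were stronger. Summits inside an ORF made up 31.4% of the members, 50.0% of the weaker windows and 7.46% of the stronger ones. Members were found on all 16 chromosomes, from 6 on chromosome IX to 51 on chromosome VII.

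The bounds cut through a continuum. The members nearest the lower bound were a window in PIL1 upstream of RPL11B (chrVII:649587-649887, sacCer3) at a mean 0 min signal of 100.1 and a window in YGR027W-A (chrVII:536539-536839) at 100.2, and the nearest windows outside it lay in ASC1 at 99.9 and in RPS27B at 99.8. The members nearest the upper bound were upstream of SGM1 (chrX:675866-676166) and beside YHR218W (chrVIII:556155-556455), both at 297, and the nearest windows outside it were upstream of TEX1 at 300.5 and IXR1 at 302.

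Measured against input, the members stood low. The ratio of 0 min ChIP signal to 0 min input signal had a median of 0.580 in replicate 1 (range 0.180 to 1.56) and of 0.400 in replicate 2 (0.137 to 1.20), and it was above 1 at 50 and 4 of the 421 members. In the windows of 300 or more the medians were 2.54 and 1.70, and in those under 100 they were 0.376 and 0.261. These ratios also carry how much S. paradoxus DNA the antibody recovered, since the spike-in bears the V5 tag as well, so a ratio under 1 is not depletion. The order of the 3 strength groups follows in part from the rule and is a description.

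Spike-in reads ranged from 4397759 to 9219038 over the 16 ChIP libraries, and the median member held between 100.0 reads in the shallowest library for these windows and 802 in the deepest. The members together carried between 5.72% and 11.4% of the signal over all windows. At 0 min the median member had a signal of 107 in replicate 1 and 158 in replicate 2.

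**Figure D1:**
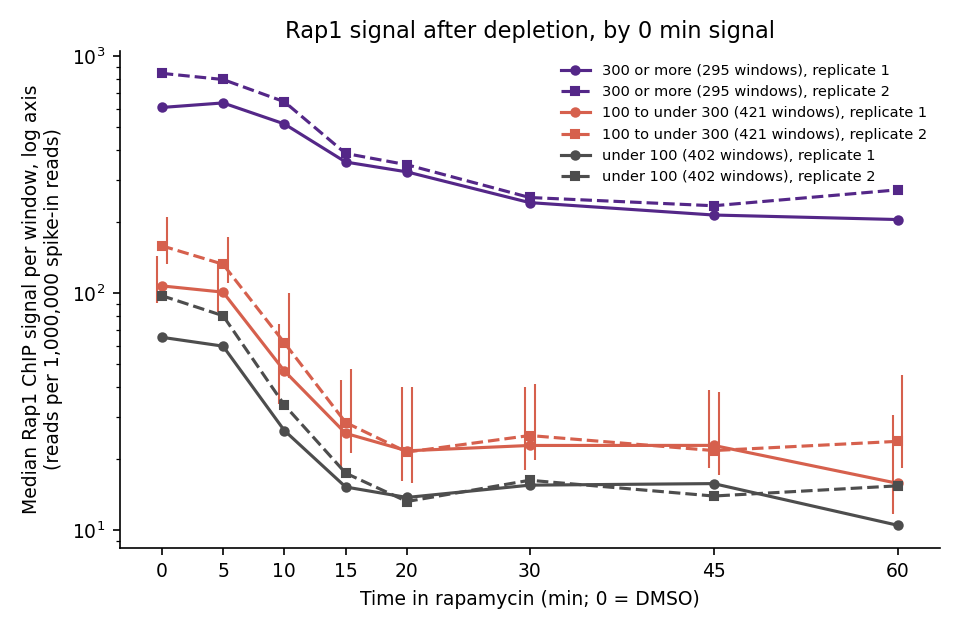
Median Rap1 ChIP signal per window (log axis, reads per 1000000 spike-in reads) against time in rapamycin for windows of 300 or more, of 100 to under 300 and under 100, with each replicate as its own line; vertical bars span the quartiles of the 421 members. The members fell from 101 and 132 at 5 min to 21.6 and 21.3 at 20 min, and stood at 15.7 and 23.7 at 60 min, while the stronger windows kept falling after 20 min.

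Rap1 signal at most of these windows fell within 15 min of rapamycin. The median member signal in replicate 1 was 107, 101, 46.9, 25.6, 21.6, 22.7, 22.8 and 15.7 at 0, 5, 10, 15, 20, 30, 45 and 60 min. In replicate 2 it was 158, 132, 61.7, 28.4, 21.3, 25.0, 21.6 and 23.7. Both replicates lost over 50% of the 5 min level by 10 min and changed little between 20 and 45 min. Replicate 1 then dropped from 22.8 to 15.7 at 60 min, and replicate 2 did not. Relative to the same replicate's 5 min signal, the median member kept 45.3% and 45.9% at 10 min, 25.4% and 21.7% at 15 min, and 16.6% and 18.9% at 60 min.

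In the test across all windows (limma on log2(signal + 1), adjusted by Benjamini-Hochberg), 353 of the 421 members were lower at 10 min than at 5 min, where 73.3% of all windows were, and 1 was higher, where 0.268% of all windows were. At 15 min 413 members were lower (93.5% of all windows), at 20 min 413 (94.2%), at 30 min 408 (95.0%), at 45 min 409 (95.3%) and at 60 min 419 (96.2%), with none higher at these times. The median member change against 5 min was -1.12 on the log2 scale at 10 min, -2.08 at 15 min, -2.32 at 20 min and -2.44 at 60 min, each with a standard error of 0.27 for a single window. Over all windows the median at 60 min was -2.23. The standard error is the same at every window because limma pooled the spread completely, so adjusted p-values below rest on 2 replicates per time and on spread shared over windows, and a very small p does not stand for more replication.

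Against 0 min the picture was the same by description. The median share of the 0 min signal left at 60 min was 15.3% over the members, with quartiles of 11.7% and 25.4% and a range of 4.24% to 80.3%. Under 10% was left at 71 members and over 30% at 81. The median change from 0 to 60 min was -2.64 on the log2 scale.

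The members lost signal earlier than the stronger windows, by counts. From 5 to 10 min, 82 of 295 windows of 300 or more were called lower, against 353 of 421 members and 385 of 402 weaker windows, with median changes of -0.36, -1.12 and -1.09. The member median over the stronger median, within a library, went from 0.16 and 0.17 at 5 min to 0.09 and 0.10 at 10 min and 0.07 and 0.06 at 20 min, and was 0.08 and 0.09 at 60 min. That step rests on 2 libraries against 2, for which an exact test cannot go below p = 0.333. Between the 6 libraries of 5, 10 and 15 min and the 6 of 30, 45 and 60 min, the ratio did not pass the exact permutation test (log2 change -0.16, p = 0.478, two-sided), since it fell and then partly came back. The ratio to the weaker windows was lower in all 6 late libraries than in any early one (log2 change -0.18, exact permutation p = 0.0022, the smallest possible, adjusted p = 0.0043 over these 2 ratios). Both ratios were added after the values were seen. With only 5 and 10 min set against 45 and 60 min, the second had an adjusted permutation p of 0.057. The smallest exact p of that split is 0.0286, so after adjustment over 2 ratios it could not pass alone.

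**Figure D2:**
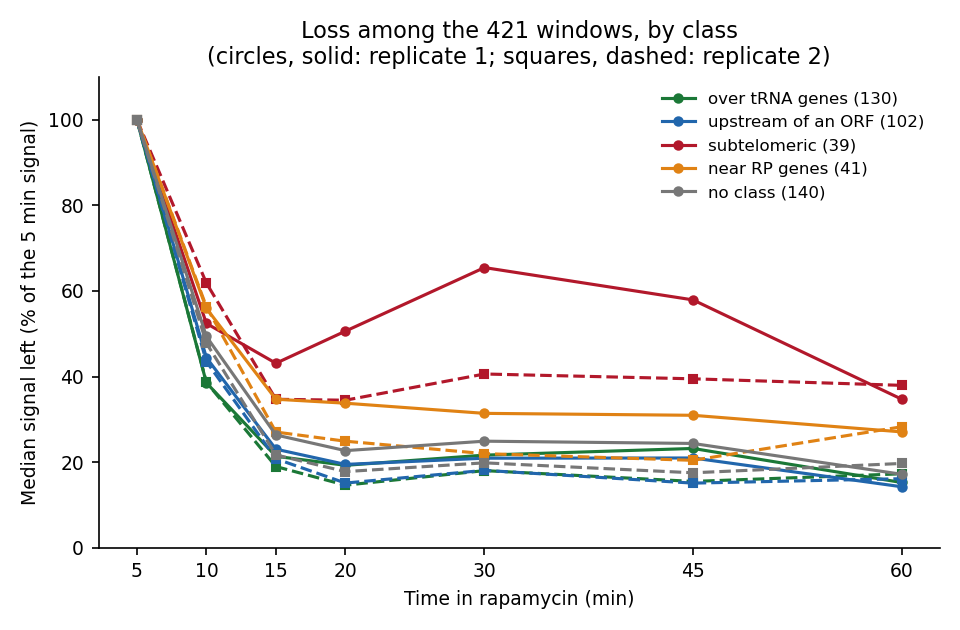
Median signal left, as a percentage of the same replicate's 5 min signal, against time in rapamycin for the 5 classes of members, which may overlap; circles and solid lines are replicate 1, squares and dashed lines replicate 2. Windows over tRNA genes were down to 38.5% and 38.7% at 10 min, and the 39 subtelomeric windows stayed above the other classes, at 34.7% and 38.0% at 60 min.

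Where a window sat went with how it lost signal. To test this, the median signal of each class was divided by that of the 140 members of no class in the same library, and 6 early libraries (5, 10 and 15 min) were set against 6 late ones (30, 45 and 60 min) by a two-sided exact permutation test adjusted over the 4 classes. The subtelomeric ratio rose by 0.96 on the log2 scale, or 1.94-fold (exact p = 0.0022, the smallest possible, adjusted p = 0.0087). It was 1.53 and 1.33 at 5 min and 3.55 and 3.37 at 60 min, and every late library was above every early one. The ratio of windows upstream of ORFs fell by 0.26 (exact p = 0.0065, adjusted p = 0.013), from 1.27 and 1.16 at 5 min to 0.87 and 0.91 at 60 min. The classes were chosen with earlier results of these data known, and the p-values do not allow for that choice.

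The other classes did not pass. Windows near RP genes gained 0.24 (exact p = 0.043, adjusted p = 0.058), and passed only without replicate 2 of 30 min (0.31, adjusted p = 0.0087) or with 5 and 10 min set against 45 and 60 min (0.35, adjusted p = 0.038). Windows over tRNA genes changed by 0.11 (exact p = 0.20, adjusted p = 0.20). For these the ratio to the members of no class dipped from 0.90 and 0.88 at 5 min to 0.72 and 0.67 at 10 min and was back at 0.80 and 0.82 at 60 min.

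**Figure D3:**
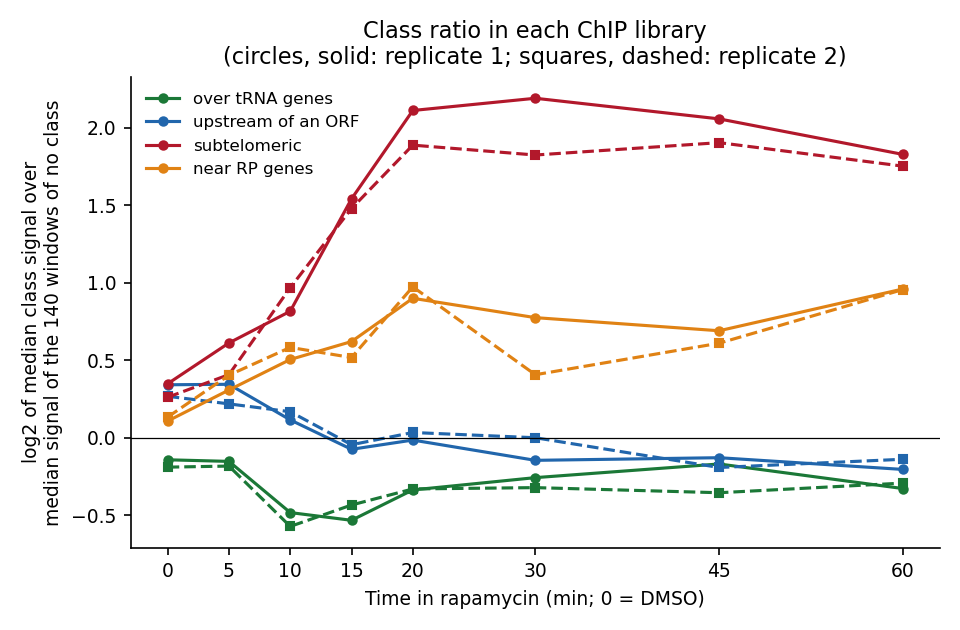
The log2 ratio of each class's median signal to that of the 140 members of no class, in each of the 16 ChIP libraries by time; circles and solid lines are replicate 1, squares and dashed lines replicate 2. The subtelomeric ratio climbed to around 2 by 20 min in both replicates, and the ratio of windows upstream of ORFs went from above 0 at 0 and 5 min to around 0 or below from 30 min on.

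The 130 windows over tRNA genes behaved alike. The study left its peaks over tRNA genes and Ty elements out of further analysis. Its reasons were that no link of Rap1 to genes of RNA polymerase III is known and that highly transcribed loci often give ChIP artifacts. Whether the signal at these windows reflects Rap1 binding was not tested. All 130 were lower at 10 min than at 5 min, against 223 of the other 291 members and 73.3% of all windows. At 60 min all were lower, as 96.2% of all windows were. The 107 weaker windows over tRNA genes were also all lower at both times. The median signal of the 130 members in replicate 1 was 94.8, 86.3, 34.0, 18.4, 16.7, 19.8, 20.2 and 13.0 over the 8 times. The values of replicate 2 were 138, 114, 43.3, 21.3, 16.5, 20.3, 17.6 and 19.5. The share of 0 min signal left at 60 min had quartiles of 12.2% and 15.7%, the narrowest of the classes.

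The summit sat on the tRNA gene itself. The 130 windows covered 135 of the 275 annotated tRNA genes, 5 of them 2 genes each, and at 121 the summit was inside a gene. Counted from the gene's 5′ end, the median summit position was 47 bp (quartiles 35 and 57). Since 24 of these windows also had an ORF starting within 300 bp, the 2 classes share members.

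Some tRNA windows stood out in level. The strongest was over EMT5, a methionine tRNA gene, 200 bp upstream of YJL028W (chrX:390961-391261). Its signal in replicate 1 was 232, 246, 138, 106, 101, 91.2, 107 and 104 over the 8 times. In the other replicate it was 342, 335, 178, 119, 115, 112, 110.2 and 139.8. It kept 44.7% and 40.9% of 0 min at 60 min, above every other tRNA window, and a window of 300 or more lay 470 bp away. The next by 0 min signal, over YNCL0044W (chrXII:797037-797337), kept 7.19% and 7.95%, with another stronger window 547 bp away.

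Small nonprotein genes of RNA polymerase III other than tRNA genes gave 5 members, among 6 windows at such genes in the whole table. They lay at SCR1, the RNA of the signal recognition particle (chrV:442094-442394), at the 5S rRNA gene RDN5-4 (chrXII:481975-482275), at SNR52, a small nucleolar RNA (chrV:431146-431446), and, with a pair of windows, at RPR1, the RNA of RNase P (the stronger at chrV:117876-118176). All 5 were lower at 10 min (73.3% of all windows) and at 60 min (96.2%) than at 5 min. At these 5, 11.9% to 15.0% of the 0 min signal was left, within the quartiles of the tRNA windows or close to them. The 5S gene is repeated in the rDNA array, so its reads cannot be given to a single copy. A further 14 members lay over other SNR genes, most of them small nucleolar RNA genes, a set picked after the values were seen. All 14 were lower at 10 min (73.3% of all windows) and at 60 min (96.2%) than at 5 min. They kept 13.1% to 26.5% of 0 min, with a median of 14.5%.

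Near chromosome ends the signal fell least. In the 39 subtelomeric members the median signal in replicate 1 was 133, 147, 83.6, 77.4, 91.2, 108, 94.8 and 58.1 over the 8 times. For replicate 2 the series was 188, 171, 126, 80.3, 76.9, 89.8, 84.5 and 80.6. In replicate 1 the level at 30 min was above that at 15 min and dropped again by 60 min, and in replicate 2 it was level from 15 min on. At 60 min 38 of 39 were lower than at 5 min, where 96.2% of all windows were. The median share of 0 min signal left was 38.6% (quartiles 30.1% and 55.1%).

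The 5 subtelomeric members closest to the ends had a higher median share left, 68.5%, than the 34 others, 37.4%, though the ranges overlap and no test was run. The 5 whose summits lay within 300 bp of a chromosome end kept 54.9% to 73.0% of 0 min at 60 min. None of these 5 was lower at 10 min than at 5 min by the test, where 73.3% of all windows were. All 5 were lower at 60 min, as 96.2% of all windows were. At the left end of chromosome XIV, by YRF1-6, a helicase gene of the Y′ element (chrXIV:65-365), replicate 1 gave 133, 166, 119, 119, 145, 170.3, 151 and 105. In replicate 2 it was 212, 226, 189, 137, 147, 158, 169.6 and 142. The fall from 5 to 60 min was -0.66 ± 0.27 (log2, SE, adjusted p = 0.016), but it lost the call without replicate 1 of 60 min (-0.45, adjusted p = 0.15) or without replicate 2 of 5 min (-0.44, adjusted p = 0.20), and it turned to a rise of 0.72 when libraries were scaled to their total over all windows. Scaling to the total takes out the fall that the windows share, so any window that fell less than the total shows a rise. The right ends of chromosomes XVI (YPR204W, chrXVI:947680-947980), V (YER190C-B, chrV:576461-576761) and VII (YRF1-3, chrVII:1090541-1090841) kept 72.0%, 68.5% and 67.6%. Y′ and X elements, COS, PAU and YRF1 genes exist in near-identical copies, so reads at these windows may come from other ends.

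Other subtelomeric members ranged from 9.20% to 64.0%. PHO89, a phosphate transporter gene 14147 bp from its chromosome end, kept 9.20%, and YNR075C-A (chrXIV:781419-781719), 2764 bp from its end, kept 15.3%. The 4 strongest were at YHR218W, at YRF1-3 (chrVII:1084372-1084672), at YCR108C (chrIII:315898-316198) and at PAU9 (chrII:6277-6577), and kept 40.6%, 59.8%, 36.7% and 27.3%. The window at YCR108C lies beyond the deleted HMR locus, where positions in the modified genome may be shifted from those of the annotation. Of the 39 members, 16 gave a decay curve that passed the fit described below.

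The members near RP genes lay mostly inside the genes. Of the 41, 33 had their summit in an ORF, 31 of them in the RP gene itself, and only 6 had an RP gene starting within 300 bp downstream. Median signals in replicate 1 were 113, 119, 67.4, 40.9, 39.4, 40.5, 36.7 and 31.8 over the 8 times. In replicate 2 they were 172, 171, 96.4, 41.2, 40.8, 33.6, 34.4 and 46.4. At 60 min 40 of 41 were lower than at 5 min, where 96.2% of all windows were. A median of 28.7% of the 0 min signal was left, against 15.3% over all members.

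Single RP windows spread widely. The strongest of these members lay 277 bp upstream of RPP0, encoding the P0 stalk protein (chrXII:805460-805760), and kept 29.7% and 29.5% at 60 min. A window 305 bp upstream of RPL9A (chrVII:228484-228784) kept 52.7% and 44.5%. In the body of RPL10 (chrXII:283162-283462), 640 bp from a stronger window, replicate 1 was 190.2, 199, 102, 68.9, 69.7, 83.9, 96.8 and 93.3. The values of replicate 2 were 295, 275, 151, 70.9, 73.5, 72.4, 76.7 and 122. Both replicates reached their lowest level between 15 and 30 min and were higher at 60 min, a difference from 20 min of 0.57 ± 0.27 that did not pass (adjusted p = 0.28).

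The window 463 bp upstream of RPS0A, a small-subunit protein gene (chrVII:919962-920262), kept more than any other member. In replicate 1 its signal was 179.8, 214, 139.7, 131, 153, 152, 156 and 154. In the other replicate it was 304, 321, 249, 171, 164, 175, 202 and 229. The signal fell between 5 and 15 min and then stayed or rose, and at 60 min 85.4% and 75.2% of 0 min was left. The change from 5 to 60 min, -0.48 ± 0.27, did not pass (adjusted p = 0.080), passed with the strain isolate as a block (adjusted p = 0.022), and was a rise of 0.91 under the scaling to the total. The nearest window of 300 or more lay 80355 bp away.

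A window in FYV12 was the only member called higher than at 5 min at any time with the spike-in scaling. The summit lay in that ORF, with the RP gene RPS30B starting within 300 bp (chrXV:678855-679155). Replicate 1 gave 101, 103, 193, 139, 105, 68.7, 65.8 and 69.7. For replicate 2 the series was 161, 163, 256, 155, 126, 81.8, 86.8 and 94.8. In both replicates the 10 min value was the highest of the series, up by 0.78 ± 0.27 on the log2 scale from 5 min (adjusted p = 0.0069), and by 60 min the signal was below 5 min (-0.66, adjusted p = 0.015). The rise lost its call without replicate 1 of 5 min (0.45) or replicate 2 of 10 min (0.57). With the scaling to the total over all windows, 12 members were called higher at 10 min, among 65 of all windows. The fall to 60 min lost its call without replicate 1 of 60 min (-0.45, adjusted p = 0.15) or replicate 2 of 5 min (-0.34, adjusted p = 0.32), and reversed to 0.72 under the scaling to the total.

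Several members lay in the bodies of protein-coding genes. Whether signal in gene bodies reflects Rap1 binding was not tested either. At TDH3, encoding glyceraldehyde-3-phosphate dehydrogenase, 3 members allowed a comparison within a gene. The upstream window, 496 bp before the ORF (chrVII:884156-884456), gave 119, 113, 116, 87.8, 83.3, 62.1, 70.4 and 57.7 in replicate 1 and 177, 152, 160.4, 109.7, 84.5, 86.3, 80.8 and 84.6 in replicate 2. The nearer of the body windows (chrVII:883269-883569) gave 117, 102, 58.5, 31.9, 30.2, 31.2, 31.1 and 25.0 in replicate 1 and 179, 143, 64.8, 30.6, 27.4, 28.4, 25.0 and 33.2 in replicate 2. From 5 to 10 min the body window fell (-0.96, adjusted p = 0.00086) and the upstream window was at 0.06 (adjusted p = 0.84), and at 60 min 20.0% was left in the body against 48.2% upstream, with no overlap between replicates.

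At YEF3, encoding translation elongation factor 3, the order was the other way round. The window 286 bp upstream (chrXII:636344-636644) gave 200.4, 147, 47.9, 28.5, 20.9, 20.2, 18.3 and 10.4 in replicate 1. In replicate 2 it was 293, 195, 80.3, 32.1, 22.1, 20.4, 19.0 and 17.4. It kept 5.20% and 5.95% at 60 min, whereas the windows in the ORF (chrXII:637158-637458 and chrXII:637848-638148) kept 16.7% and 19.9% as means. These pairs were picked after their values were seen, and the differences between windows of a gene were not tested.

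By gene list, glycolysis and fermentation gave 7 members, 5 of them called lower at 10 min, where 73.3% of all windows were, and 7 at 60 min, where 96.2% were. Besides TDH3 they were at PDC1, encoding pyruvate decarboxylase (chrXII:233722-234022), ENO2, encoding enolase (chrVIII:451375-451675), CDC19, TPI1 and a window 100 bp upstream of YBR196C-A within 500 bp of the start of PGI1 (chrII:614123-614423). PDC1 and ENO2 windows were in the ORF and kept 20.1% and 13.7%. The list's median change at 60 min was -2.05, against -2.44 over all members and -2.23 over all windows.

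The other lists had few members each. Genes of ribosome assembly and of polymerase I and III subunits had 7 members. Of these, 4 were lower at 10 min (73.3% of all windows) and all 7 at 60 min (96.2%), with a median change of -2.93 at 60 min. They ran from RPC37, a polymerase III subunit gene, at 7.13% left and NSR1, encoding a nucleolin-like protein (chrVII:807781-808081), at 7.68%, to RPA43, a polymerase I subunit gene (chrXV:960212-960512), at 58.7%. Chaperones had 4, all lower at 60 min, with 6.44% left upstream of HSP78, 10.1% in SSC1, 17.3% in HSC82 and 38.5% upstream of SSB1, which encodes a ribosome-bound Hsp70. Amino acid and nucleotide synthesis had 6, translation factors 4, plasma membrane and cell wall 5 and iron uptake 2, all lower at 60 min, as 96.2% of all windows were. Their median changes at 60 min ran from -2.29 for translation factors to -3.08 for iron uptake.

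Membrane and wall genes again showed windows in ORFs. PMA1, the plasma membrane proton pump (chrVII:482319-482619), kept 26.0%, CCW12 (chrXII:369643-369943) 15.9% and CCW14 (chrXII:903862-904162), 490 bp from a stronger window, 48.0%. The translation elongation factor genes TEF1 (chrXVI:700895-701195) and HYP2, a window named by MTC7 (chrV:85787-86087), kept 31.4% each. The only member from the list of histones and chromatin was a window named by its nearest ORF, the activator gene GCR1, described below. HAT2, also described below, was not on that list.

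Over all members with the summit in an ORF, the median share left at 60 min was 20.1%. Of these 132, 119 were lower at 10 min than at 5 min, where 73.3% of all windows were. Where neither an RP gene, a tRNA gene nor a chromosome end was near, 84 such windows kept 17.3% in the median. The 78 members upstream of an ORF and not over a tRNA gene, whose summits lay a median of 204.5 bp before the nearer start (quartiles 160.2 and 249), kept 12.6%, and 49 of them were lower at 10 min. The median 0 min signal was 121 at the 84 windows and 182 at the 78, so these shares start from unlike levels. The part of the starting level in the shares was not tested. Upstream windows thus included both the lowest levels at 60 min and many of the slow starters: of the 68 members not lower at 10 min, 29 were upstream of an ORF and 0 were over a tRNA gene.

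To put a time on the loss, each window and replicate was fitted with an exponential decay to a plateau, on signal relative to 0 min, and a window counted as fitted when each replicate's log rate had p under 0.05. The fit passed at 384 of 421 members (91.2%, against 90.9% of all windows). Of the 37 that failed, 23 were subtelomeric. The apparent residence time, the inverse of the rate, had a median of 8.78 min (quartiles 8.21 and 10.6, range 6.53 to 23.5). Replicate 1 had the longer time at 327 of the 384, with medians of 9.30 and 8.50 min, and across the 384 windows the log rates of the replicates, which share the fitted model and the times sampled, had a Pearson correlation of 0.85 and a Spearman correlation of 0.82.

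The absolute times depend on the model. Without the 0 min sample the median was 3.99 min, and with the plateau held at 0 it was 12.8 min. The order moved as well. Over the 377 members with a time in both fits, the times without 0 min had a Spearman correlation of 0.74 with the main ones, and 7 of the 10 longest but 0 of the 10 shortest stayed among the 10. With the plateau at 0 the correlation was 0.79 over 384 members, and 2 of the 10 longest and 6 of the 10 shortest stayed. The 2 fits share most of their data, so these are descriptions. The times below come from the main model, with no test between classes, since the 0 min signal entered both the rule and the fit.

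Most members fell in a narrow band: 293 of 384 had a residence time between 7 and 11 min. The 130 tRNA windows all passed, with a median of 8.50 min and quartiles of 8.16 and 8.77. The 99 fitted windows upstream of ORFs had almost the same median, 8.77 min, but an upper quartile of 15.1. The 33 near RP genes had a median of 11.2, the 16 subtelomeric ones 9.90 and the 136 of no class 9.11 min.

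Residence times over 15 min were found at 35 members, a bound chosen after the values were seen. Of these, 27 had an ORF starting within 300 bp, against 72 of the 349 members at 15 min or less, and 31 had an ORF start within 500 bp. None lay over a tRNA gene, 2 were subtelomeric and 2 had the summit in an ORF.

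The 10 shortest times ran from 6.53 to 6.98 min, each with a standard error of the fit between 0.737 and 0.949 min, so their order is not resolved. The lowest estimate was 144 bp upstream of TVP15, a Golgi membrane protein gene (chrIV:654719-655019), with 6.85 and 6.23 min in the replicates. Its signal was 121, 78.4, 26.3, 12.6, 12.8, 12.1, 13.5 and 7.43 in replicate 1 over the 8 times. The values of replicate 2 were 180.0, 102, 32.7, 17.5, 13.9, 15.2, 12.2 and 10.2. Already at 5 min it was down to 64.7% and 56.5% of 0 min. Next came GSR1 (chrXIII:858968-859268) at 6.58 min, YGR050C (chrVII:592470-592770) at 6.61, and PLB1, a phospholipase B gene (chrXIII:282872-283172), at 6.75 min. Windows in COQ2 (chrXIV:700569-700869) and RPC37 (chrXI:488076-488376), upstream of YMR265C and COS111, in STB5, and at YNR075C-A filled the list. None of the 10 was near an RP gene or over a tRNA gene.

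The 10 longest times ran from 20.5 to 23.5 min, with standard errors of the fit from 4.54 to 13.5 min, wider than the span between them, and without 0 min they were 8.39 to 15.6 min. The highest estimate was 492 bp upstream of YBL029C-A (chrII:165114-165414), at 30.5 and 18.1 min. Its signal was 157, 148, 195, 102, 71.3, 49.8, 47.7 and 39.8 in replicate 1. In the other replicate it was 246, 193, 239, 114, 77.5, 61.7, 51.6 and 59.4. In both replicates the 10 min value was above the 5 min value, by a difference that did not pass (0.35 ± 0.27, adjusted p = 0.23), and 25.3% and 24.2% of 0 min was left at 60 min.

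GCR1, the activator that works with Rap1 at glycolytic genes, was among the 10. The window lay 224 bp upstream of its ORF (chrXVI:411880-412180). Replicate 1 gave 89.3, 107, 82.0, 66.4, 57.8, 58.4, 53.7 and 40.7. For replicate 2 the series was 131, 155, 126, 71.9, 71.1, 64.1, 60.1 and 61.1. The 5 min value was the highest in both replicates, the fall to 10 min did not pass (-0.34 ± 0.27, adjusted p = 0.25), and that to 60 min did (-1.35, adjusted p = 8.0e-07), although it vanished under the scaling to the total (0.02, adjusted p = 0.89). Its residence time was 27.5 and 17.7 min, with a standard error of 11.1 min for the 22.0 min of both, and 8.39 min without 0 min.

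The rest of the slowest windows were upstream of CPR4, a cyclophilin gene, with the summit in ATG15 (chrIII:238605-238905, 23.4 min), CBP2, needed for mitochondrial RNA splicing (chrVIII:25555-25855, 23.2 min), YBR196C-A near PGI1 (22.8 min), YER034W (chrV:221576-221876, 21.4 min), SSB1 (chrIV:43630-43930, 21.2 min), SIZ1, a SUMO ligase gene that shares this region with ADE8 (chrIV:1289074-1289374, 20.7 min), PFK27, a 6-phosphofructo-2-kinase gene (chrXV:69155-69455, 20.5 min), and HAT2, a histone acetyltransferase subunit gene (chrV:46827-47127, 20.5 min). They split by where they ended. CPR4, HAT2, SIZ1, CBP2 and YBR196C-A fell to 14.3%, 16.7%, 17.9%, 20.7% and 22.5% of 0 min, while SSB1, GCR1, PFK27 and YER034W kept 38.5%, 46.1%, 49.8% and 63.5%. None of the 10 was lower at 10 min than at 5 min by the test, where 73.3% of all windows were. The fits that picked them used both times, so this follows in part from the choice.

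**Figure D4:**
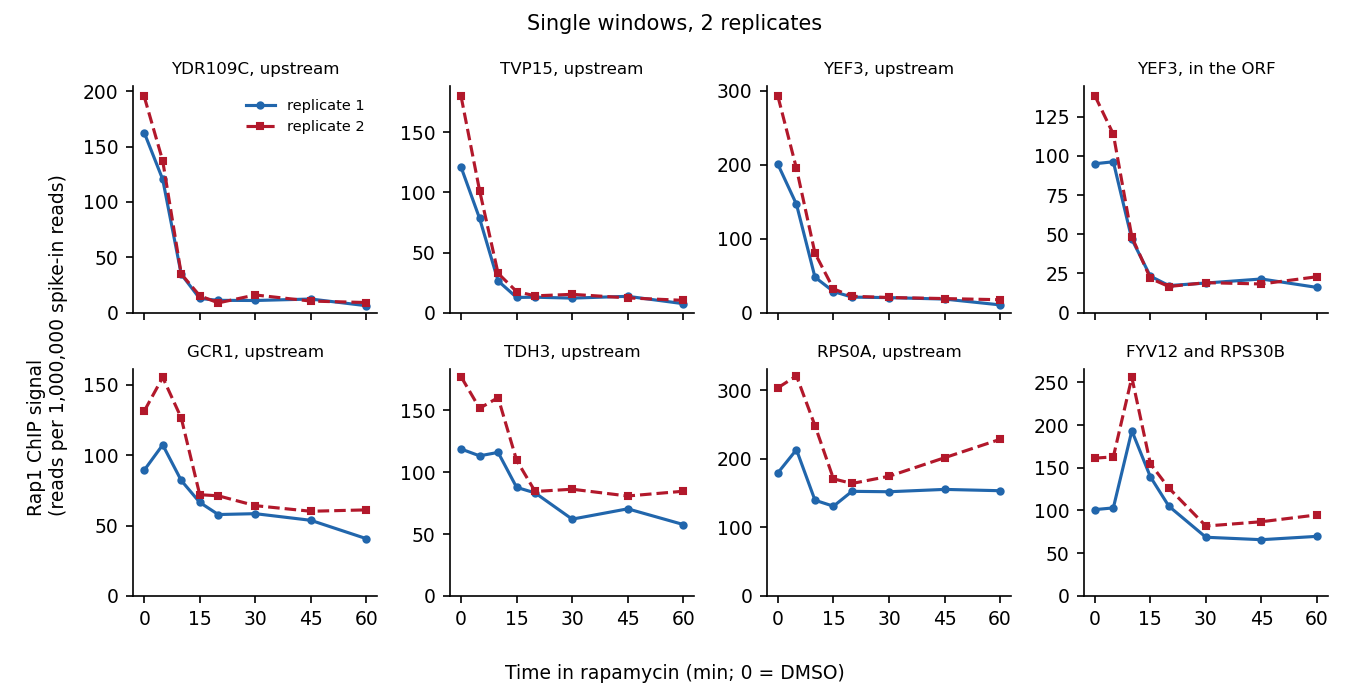
Rap1 ChIP signal (reads per 1000000 spike-in reads, axis from 0 in each panel) against time in rapamycin at 8 member windows, with each replicate as a line. The upper row holds windows that fell to a low level by 15 min, and the lower row windows that kept 45.6% or more of their 0 min signal at 60 min in both replicates, FYV12 with a peak at 10 min.

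The least was left upstream of YDR109C (chrIV:675605-675905), 88 bp before its start. The series of replicate 1 was 163, 120.3, 34.7, 12.7, 11.1, 10.9, 12.2 and 6.21. In replicate 2 it was 195, 137, 34.9, 15.2, 8.75, 15.9, 10.4 and 9.09. The level at 60 min was 3.82% and 4.66% of 0 min, and the fall from 5 min was -3.92 ± 0.27 (adjusted p = 1.7e-44). The next were just past PGA2 (chrXIV:349194-349494) at 4.43%, upstream of ALG3, a mannosyltransferase gene of protein N-glycosylation (chrII:71105-71405), at 4.52%, HMS1 (chrXV:391011-391311) at 5.22% and YEF3 at 5.57%. SGM1, DAP1, EEB1, TVP15 and NMD5 followed at 5.85% to 6.34%. All but the PGA2 window had an ORF starting within 300 bp. All 10 were lower at 10 min than at 5 min, where 73.3% of all windows were.

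The most was left at RPS0A (80.3%), at 4 chromosome ends, and upstream of PUT3, the activator of proline use, which shares this promoter region with ATP7 (chrXI:408131-408431). There replicate 1 gave 104, 127, 102, 69.5, 92.0, 87.5, 83.4 and 77.7. The values of replicate 2 were 184, 190.1, 152, 99.8, 101, 100.5, 102 and 114. The fall from 5 to 60 min was -0.72 ± 0.27 (adjusted p = 0.0089), lost without replicate 1 of 60 min (-0.44, adjusted p = 0.15) or replicate 2 of 5 min (-0.43, adjusted p = 0.20), and was a rise of 0.66 under the scaling to the total. YBL111C (chrII:5601-5901) at 68.2% and 59.8% in the replicates, FYV12 at 63.9%, YER034W at 63.5% and WHI2, a general stress response gene whose ORF starts 560 bp away (chrXV:410160-410460), at 63.2% completed the 10. YBL111C and RPS0A were the 2 members not lower at 60 min than at 5 min, at -0.54 (adjusted p = 0.051) for YBL111C. For YBL111C the call was made in 10 of 22 alternatives, the isolate block among them (adjusted p = 0.010).

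After 20 min few members moved. From 20 to 60 min 11 were lower, where 6.89% of all windows were, and 0 were higher (37 lower and 3 higher at an unadjusted p under 0.05). With the strain isolate as a block, 29 were lower and 1 higher. Of the 11, 9 were upstream of an ORF: CPR4 had the largest fall, -1.18 (adjusted p = 0.00095), ahead of YBR196C-A at -1.16 (adjusted p = 0.0012) and HAT2 at -1.08 (adjusted p = 0.0030). The others were at ORC2, SIZ1, CBP2, CHM7, STE3, RRP14, SST2 and MUB1. The count fell to 0 without replicate 1 of 60 min or without replicate 2 of 20 min, to 3 without replicate 1 of 20 min, and rose to 42 without replicate 2 of 60 min, so it rests on single libraries.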

How the data were processed

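Rap1 was measured by V5 ChIP-seq in 16 libraries (8 times, 2 isolates) with 2 input libraries at 0 min. The deposited signal values were made by the authors as reads in windows of 150 bp on either side of summits called with MACS on 0 min ChIP against a no-tag control, divided by the S. paradoxus reads outside the rDNA (deposited by the authors as counts per library) and multiplied by 1000000, on a hybrid of modified sacCer3 and S. paradoxus. Base calling (CASAVA 2.2), alignment (Bowtie2) and SAMtools come from the submitters' processing notes. No-tag and sir4delta samples, 1 line of the table that is no window and 14 input columns were not used here.

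Members, bounds, position classes and gene lists were chosen with earlier results of these data known. Genes came from the R64 RefSeq annotation, with strand read from locus tags, and chromosome ends from sacCer3 lengths written by hand, which no deposited table holds. Classes used an ORF start within 300 bp downstream, an RP gene start within 500 bp, tRNA overlap, or 15 kb from a chromosome end. Motifs were not analysed here because no genome sequence was at hand. Windows named were the 10 shortest and 10 longest residence times, the 10 smallest and 10 largest shares left, the 2 on each side of each bound, and up to 4 per list or class by 0 min signal. Other windows were named after their values were seen.

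All 1118 windows were fitted with limma 3.58.1 (R 4.3.3) on log2(signal + 1), time as a factor, Benjamini-Hochberg threshold 0.05. Decay used nls with SSasymp. Class ratios used an exact permutation test over libraries. Values were whole reads once multiplied by the spike-in total, but are normalised signal, so no count test was run. On simulated data with a spread of 0.272, limma found 12 of 50 windows with a fall of 0.5 (log2), 44 of 50 with 1, and 7 of 918 with none, for 60 against 5 min. That noise was drawn separately for each window and library. Shifts that the windows of a library share were not simulated, so these rates do not cover them. Decay fits recovered the residence time to a median absolute error of 13.8% over 300 simulated windows. Those curves came from the fitted model itself, with a single low plateau and a relative noise of 0.1. The error for members with a high plateau or another curve shape was not simulated.

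Same-numbered libraries came from the same isolate. Their deviations correlated at a median of 0.17 over 28 pairs of times (-0.21 to 0.41). Separate cultures are not stated. The limma p-values rest on the spread between these 2 samples per time, pooled over windows. The exact permutation p-values rest on the spread among libraries of different times from the same 2 isolates. Neither kind is known to cover the spread between separate cultures.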

Additional observations from a re-analysis of the deposited data

How the results depend on the processing

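The 5 min libraries set every fall here, with 2 replicates per time. Counts kept within 1.5 times their main value under most alternatives. A mean signal of at least 50 left 240 members in the test, of which 171, 233, 232, 228, 228 and 239 were lower at 10, 15, 20, 30, 45 and 60 min than at 5 min; fewer windows were tested. The median member change from 0 to 60 min, -2.64 (log2), was -2.70 and -2.42 with pseudocounts of 0.1 and 5, -1.30 under the scaling to the total, -2.21 with a mean signal of at least 50, and -2.93 to -2.35 without 1 library. From 20 to 60 min, 11 members were lower in the main analysis, 29 with the isolate as a block, 27 when libraries were scaled to their total over all windows (with 21 higher), and 0 to 42 when a library was left out. The block as a pairing gave 378, 418, 417, 412, 413 and 421 members lower than at 5 min, and adjusted p of 0.225 for tRNA, 0.020 for upstream, 0.020 for subtelomeric and 0.053 for RP ratios, and beyond those counts it changed among named windows the 60 min calls of RPS0A and YBL111C alone. The median residence time was 3.99 min without 0 min, 12.8 min with the plateau at 0 and 7.82 min under the scaling to the total, where 295 members passed.

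The ratio of members to stronger windows was 0.091 (log2) with means of log2 signal, against -0.16. With 5 and 10 min set against 45 and 60 min, the RP ratio was 0.35 and the ratio to weaker windows -0.20. Without 1 library the RP ratio ran from 0.20 to 0.31. Scaling to the total over all windows takes out the loss they share, so a window that fell less than the total comes out as a rise. It moved the median change of all windows from -2.23 to -0.88 (60 against 5 min), with 848 lower and 128 higher. It left 345 members lower and 30 higher (median -1.09). Under it 21 named windows were above 5 min at 60 min: RPS0A 0.91, YBL111C 0.85, YRF1-3 0.81 and 0.62, YPR204W 0.74, YRF1-6 0.72, FYV12 0.72, YER190C-B 0.67, YER034W 0.66, PUT3 0.66, WHI2 0.57, RPA43 0.49, TDH3 0.48, RPL9A 0.43, PFK27 0.37, CCW14 0.33, RPL10 0.26, IMD2 0.15, EMT5 0.14, GCR1 0.022 and RPL11B 0.018. Of 1638 values for 75 named windows, 1582 kept their call, 22 lost it, 13 gained it and 21 reversed. Without replicate 1 of 60 min, or without replicate 2 of 5 min, 9 named windows lost their fall to 60 min: YER034W, YRF1-6, YPR204W, YER190C-B, PUT3, FYV12, WHI2 and both at YRF1-3. The cause was not tested. The planned motif step was not run.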

Other observations

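Some members lay close to a stronger site. A window of 300 or more was within 1000 bp of 63 members, whose median share of 0 min signal left at 60 min was 30.3% (quartiles 22.5% and 39.9%), against 14.3% (10.8% and 20.1%) for the 358 members farther away. Of the 63, 58 were lower at 10 min than at 5 min (73.3% of all windows), and all 63 were at 60 min (96.2%). Their fitted residence times had a median of 10.8 min over 50 windows, against 8.64 min over 334. The part of the stronger window in these values was not tested.

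A total of 11 members had 2 ORFs starting within 300 bp downstream of the summit. Of these 6 were lower at 10 min, where 73.3% of all windows were, and 11 at 60 min, where 96.2% were, and their residence times over 10 fitted windows had a median of 13.6 min, with 5 above 15 min. A further 10 members overlapped another window, so their reads are partly shared.

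Input signal also varied with position. Its median at 0 min was 190 and 410 in the replicates over all members, 256 and 492 at the 39 subtelomeric members, and 357 and 667 at the 5 within 300 bp of a chromosome end. The ratio of ChIP to input at 0 min had medians of 0.355 and 0.284 at those 5, 0.532 and 0.339 over tRNA genes, and 0.707 and 0.478 upstream of ORFs. Input was used at 0 min alone.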
